A study of Mus musculus with 9 samples.

Results

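Metallothioneins and zinc transporters are the 8 genes described here, out of 36119 in the table: the metallothioneins Mt1 and Mt2, the exporters Slc30a1, Slc30a4 and Slc30a10, and the importers Slc39a4, Slc39a5 and Slc39a14. They were chosen by name from the zinc and metal handling families, with earlier results of these data known, and all 8 passed the filter on low counts. RNA was sequenced from liver tissue of male wild-type C57BL/6J mice aged 6 to 8 weeks, with 3 mice in each of 3 groups. The Cont mice received saline by intraperitoneal injection and then corn oil by gavage. The OA mice received saline and then oleanolic acid, a plant triterpenoid used to produce cholestatic liver injury, at 295.5 mg/kg by the sample titles and 295.92 mg/kg by the treatment protocol. The ZnPP+OA mice received protoporphyrin IX zinc, an inhibitor of heme oxygenase that carries a zinc ion in its ring, at 20 mg/kg, and then the same gavage of OA. The injection came 2 h before the gavage, treatment ran for 4 days, and the study fasted its mice for 12 h before collection. Mice given ZnPP without OA, and the zinc content of the livers, were not analysed here.

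Metallothioneins are small cysteine-rich proteins that bind zinc and copper, buffer free zinc and scavenge oxidants. In liver, Mt1 and Mt2 are known as genes that zinc, glucocorticoids and inflammatory cytokines switch on, and the zinc response runs through the transcription factor Mtf1 and metal response elements in their promoters. The Slc30 proteins move zinc (or manganese) out of the cytosol, to the outside of the cell or into vesicles, and the Slc39 proteins move metal ions into the cytosol.

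Mt2 and Mt1 stand next to each other on chromosome 8 on the same strand, at positions 94172618 to 94173567 and 94178883 to 94180327 in RefSeq's annotation of GRCm38.p6. RefSeq promoter windows of the same build, from 250 bases before to 50 bases after an annotated start, were found for 6 of the 8 genes, and Slc39a4 and Slc39a14 are only named. The windows of the genes that the results turn on are shown because the core of the metal response element can be read in them. Capitals mark each match to the core, written TGCACNC or TGCGCNC and searched on both strands.
Mt1, chr8:94178839-94179138, plus strand: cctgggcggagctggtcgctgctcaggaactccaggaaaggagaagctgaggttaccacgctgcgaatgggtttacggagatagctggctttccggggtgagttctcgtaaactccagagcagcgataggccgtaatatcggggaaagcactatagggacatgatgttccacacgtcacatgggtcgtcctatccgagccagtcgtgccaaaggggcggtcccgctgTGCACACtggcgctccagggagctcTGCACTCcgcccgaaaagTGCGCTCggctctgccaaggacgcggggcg
Mt2, chr8:94172368-94172667, plus strand: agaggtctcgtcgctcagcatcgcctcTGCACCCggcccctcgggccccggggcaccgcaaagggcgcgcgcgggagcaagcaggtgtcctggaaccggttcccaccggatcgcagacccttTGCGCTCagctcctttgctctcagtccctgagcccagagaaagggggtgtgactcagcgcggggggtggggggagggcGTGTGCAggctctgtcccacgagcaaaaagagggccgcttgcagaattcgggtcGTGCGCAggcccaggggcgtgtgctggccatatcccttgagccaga
Slc30a1, chr1:191906531-191906830, plus strand: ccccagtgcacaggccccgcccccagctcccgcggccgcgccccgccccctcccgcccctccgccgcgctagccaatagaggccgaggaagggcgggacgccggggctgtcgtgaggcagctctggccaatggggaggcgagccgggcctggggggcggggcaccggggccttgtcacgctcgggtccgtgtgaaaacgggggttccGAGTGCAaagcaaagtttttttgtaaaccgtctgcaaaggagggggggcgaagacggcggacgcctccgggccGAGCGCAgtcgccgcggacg
Slc30a4, chr2:122702614-122702913, minus strand: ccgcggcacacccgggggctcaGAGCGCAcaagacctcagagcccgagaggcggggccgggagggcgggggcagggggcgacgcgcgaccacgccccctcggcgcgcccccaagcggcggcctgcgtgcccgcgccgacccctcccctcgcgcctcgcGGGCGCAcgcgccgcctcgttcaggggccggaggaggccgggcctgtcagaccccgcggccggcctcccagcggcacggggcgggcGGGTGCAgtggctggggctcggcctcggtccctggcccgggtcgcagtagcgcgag
The Mt2 window held 4 matches, the Mt1 window 3, the Slc30a4 window 3 and the Slc30a1 window 2. The Slc30a10 window also held 3, of which a pair overlap on opposite strands, and the 2 windows of Slc39a5 held 1 and 0. Among 32851 RefSeq promoter windows of this length, 25.7% had at least 1 match, 7.11% at least 2, 1.97% at least 3 and 0.517% at least 4. The Mt1 window is set on a transcript start at 94179089, inside the RefSeq gene, and the Mt2 window on the gene's first base. Counted from these starts, the matches began at positions -23, 3 and 21 in Mt1 and at -223, -128, -50 and 5 in Mt2. GENCODE also annotates Mt1 transcripts that start further downstream. Windows set on those starts were not searched and may overlap the end of the window shown. The Mt1 positions above therefore hold for the upstream start alone. For Mt2, GENCODE M21 starts the gene at 94172664 and RefSeq at 94172618, so its positions hold for the RefSeq start alone. A match of letters is a description and not a measured binding site.

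**Figure D1:**
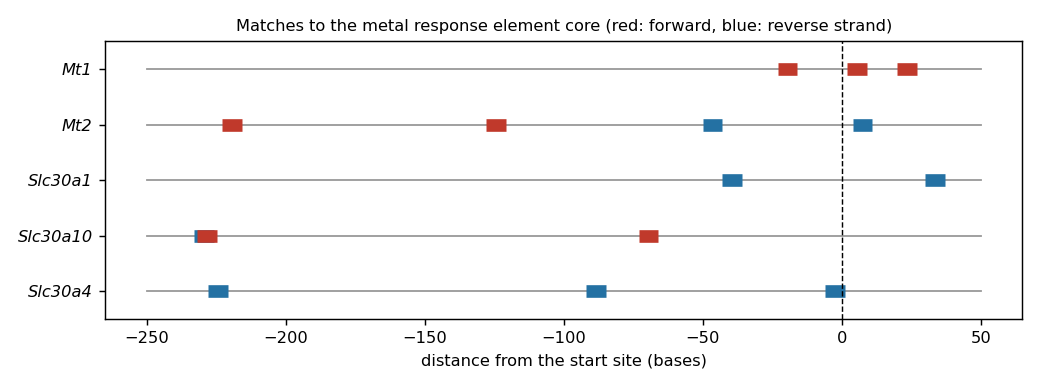
Matches to the metal response element core in the promoter windows of 5 genes, by distance from the transcript start that sets the window, in bases (x axis), with 1 line per gene. Red blocks are matches on the gene's own strand and blue blocks on the other strand. Mt2 has 4 matches spread from -223 to 5, while the 3 matches of Mt1 begin between -23 and 21.

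The 9 libraries held 32639438 to 85060187 counts, but only 4946748 (Cont 2) to 70295836 (OA 3) of these fell outside mitochondrial genes and the nuclear copies of mitochondrial DNA, so depth behind the zinc genes was lowest in Cont 2 and highest in OA 3. This depth split by group. The OA livers held 31232063 or more such counts, and every other liver held 23122403 or fewer. Levels are given as CPM, counts scaled to library sizes after TMM scaling, which matches libraries on the bulk of their genes. The TMM factors split the same way, from 1.83 to 2.53 in the OA livers and from 0.265 to 1.26 in the others. Depth and scaling factor therefore followed the OA group. Replicates within a group differed far beyond counting noise, with the largest spread in Cont (biological coefficient of variation 0.870, against 0.421 in OA and 0.669 in ZnPP+OA). The hepatocyte markers Alb, Apoa1, Apoa2, Tf and Fgb were high in every library. Summed, they ran from 17191 to 55067 CPM in Cont, 11427 to 19130 CPM in OA and 14514 to 19383 CPM in ZnPP+OA, and 2 of 5 were called lower in OA against Cont (median log2 fold change -1.22).

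Mt1 and Mt2 were the genes of the set called higher in OA than in Cont. Mt1 stood at 253.8, 121.3 and 82.5 CPM in the Cont livers, at 1381, 1165 and 743.1 CPM in the OA livers, and at 213.9, 327.4 and 236.3 CPM in the ZnPP+OA livers. All 3 OA livers lay above the other 6, and the Cont and ZnPP+OA livers overlapped. The mean was 152.5 ± 89.8 CPM in Cont and 1096 ± 325 CPM in OA (SD, n = 3), a 7.19-fold difference of means. Its fitted log2 fold change in OA against Cont was 2.85 ± 0.47 (SE), with a 95% interval of 1.83 to 3.87 and an adjusted p of 0.00546 by edgeR's quasi-likelihood test over all 18895 genes tested.

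Mt2 followed the same order of groups. It stood at 83.1, 45.0 and 25.2 CPM in Cont, 430.2, 377.7 and 338.5 CPM in OA, and 70.9, 109.6 and 106.7 CPM in ZnPP+OA. Again every OA liver was above every other liver. The means of 51.1 ± 29.4 CPM in Cont and 382.1 ± 46.0 CPM in OA differed 7.48-fold, and the log2 fold change was 2.90 ± 0.43, with a 95% interval of 1.97 to 3.84 and an adjusted p of 0.00303 in edgeR.

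Both metallothioneins were lower in ZnPP+OA than in OA. The mean of Mt1 in ZnPP+OA, 259.2 ± 60.1 CPM, was 0.236 of its OA mean, and that of Mt2, 95.7 ± 21.6 CPM, was 0.250 of its OA mean. The log2 fold changes were -2.08 ± 0.46 for Mt1 (95% interval -3.07 to -1.09, adjusted p = 0.0307 in edgeR) and -2.00 ± 0.42 for Mt2 (-2.90 to -1.10, adjusted p = 0.0255). This comparison shares the OA livers with the comparison of OA with Cont, so its opposite sign is not a second, separate measurement of the OA level. Leaving out OA 2, OA 3 or any 1 ZnPP+OA liver ended both calls, with adjusted p up to 0.144 for Mt1 and 0.113 for Mt2, while the log2 fold changes stayed between -2.32 and -1.85, and leaving out OA 1 ended that of Mt1 alone. The rise in OA over Cont was called for both genes without any 1 liver (adjusted p up to 0.0212 for Mt1 and 0.0143 for Mt2).

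Against Cont, the ZnPP+OA livers had 1.70 times the mean Mt1 and 1.87 times the mean Mt2, and neither difference passed the test. The log2 fold changes were 0.76 ± 0.44 for Mt1 (95% interval -0.19 to 1.72, adjusted p = 0.685 in edgeR) and 0.91 ± 0.41 for Mt2 (0.03 to 1.78, adjusted p = 0.606). The upper bounds leave room for a difference of over 1.7 on the log2 scale. Cont 1 had the highest levels of both genes in its group, above ZnPP+OA 1 in each case.

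**Figure D2:**
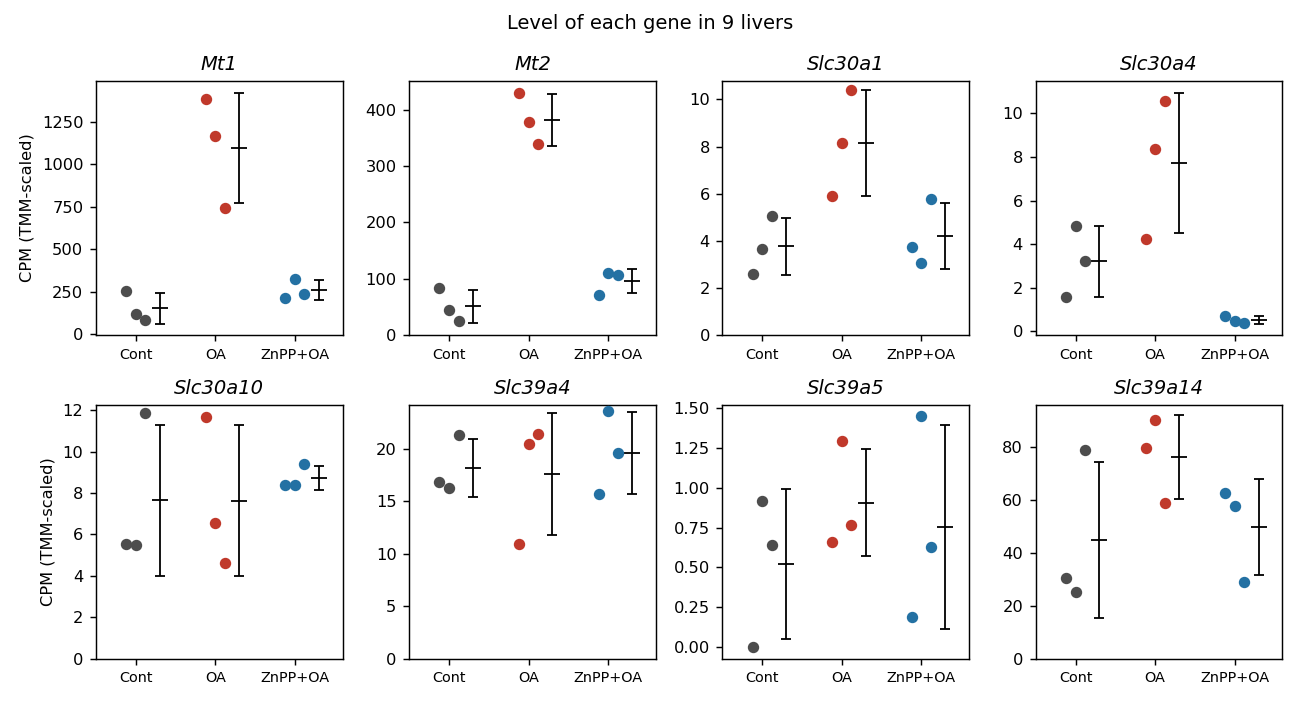
Level of each of the 8 genes in CPM (y axis, linear, own scale per panel) in the Cont, OA and ZnPP+OA livers (x axis). Points are single livers, in replicate order from left to right, and the bar beside them is the mean with its SD (n = 3). Mt1 and Mt2 reach 743.1 and 338.5 CPM or more in every OA liver, and Slc30a4 stays below 0.71 CPM in every ZnPP+OA liver.

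The rise brought both genes among the most abundant transcripts of the OA liver per length. FPKM is the authors' value scaled to length and library size. Ranked by FPKM among 18390 protein-coding genes outside the mitochondrial genome, Mt1 was at rank 102, 137 and 224 in Cont. It was at 10, 10 and 20 in OA, and at 67, 56 and 83 in ZnPP+OA. Mt2 was at rank 132, 168 and 344 in Cont, at 16, 17 and 23 in OA, and at 103, 81 and 84 in ZnPP+OA. The ranks of the groups did not overlap for OA against either other group, and for both genes all 3 ZnPP+OA livers ranked above all 3 Cont livers, although their CPM values overlapped. Both genes exceeded all 6 transporters per length in 9 of 9 livers.

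The metallothionein pair moved nearly in proportion. Per length, Mt1 exceeded Mt2 in 9 of 9 livers, with FPKM ratios of 1.44, 1.27 and 1.54 in the Cont livers, 1.52, 1.46 and 1.04 in the OA livers and 1.42, 1.41 and 1.05 in the ZnPP+OA livers. OA 3 and ZnPP+OA 3 had the lowest ratios. The mean log2 ratio differed by -0.10 between OA and Cont (exact two-sided permutation test, p = 0.7), by -0.04 between ZnPP+OA and OA (p = 0.6) and by -0.14 between ZnPP+OA and Cont (p = 0.5), all with an adjusted p of 0.7 over the 3 comparisons, where 3 livers against 3 allow no p below 0.1. Across the 9 livers, which fall into 3 groups, the Pearson r of their log2 CPM was 0.988, closer than that of either with any protein-coding gene compared.

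**Figure D3:**
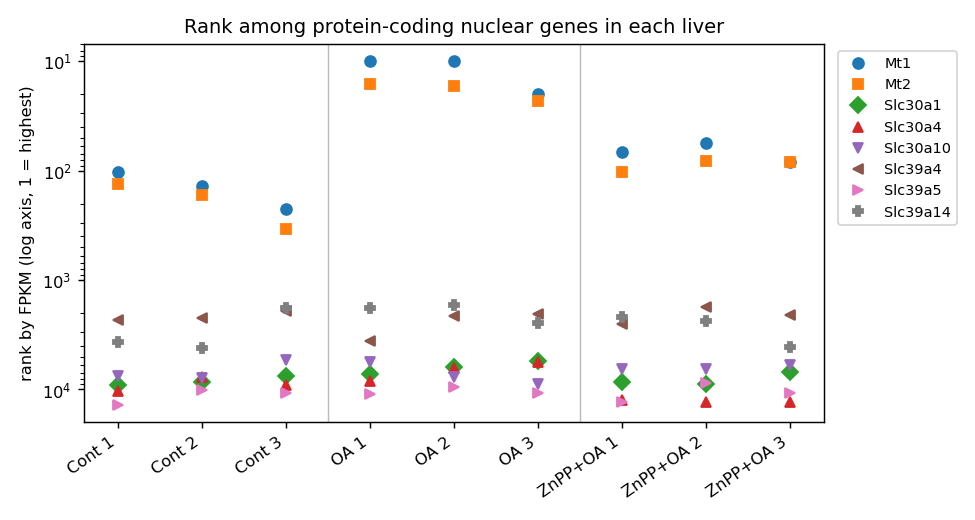
Rank by FPKM among 18390 protein-coding nuclear genes (y axis, log scale, rank 1 at the top) of the 8 genes in each of the 9 livers (x axis). Mt1 and Mt2 are at ranks 10 to 23 in the OA livers and at 56 to 344 in the others, while no transporter is above rank 1691 in any liver.

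An annotated gene on the other strand, Gm45774, covers 749 bases of the Mt2 gene in GENCODE M21. It was counted at 196, 88 and 137 in the Cont livers, 10196, 5383 and 5714 in the OA livers and 576, 1013 and 296 in the ZnPP+OA livers, which is 7.13% to 32.6% of the Mt2 count of the same library. The libraries were made with a strand-marking kit, but the sources used here do not say whether the counting used strand, so reads of the pair may be divided between them. Mt1 overlaps no other annotated gene there, and its values do not carry this limit. Markers of several cell types moved beside both metallothioneins, those of hepatocytes (given above) in the other direction in OA. The summed Kupffer cell markers (Clec4f, Vsig4, Timd4, Cd5l and Adgre1, all detected) ran from 106 to 268 CPM in Cont, 371 to 507 CPM in OA and 181 to 257 CPM in ZnPP+OA, and the summed monocyte markers (Ly6c2, Ccr2, Lyz2 and Cd14, all detected) from 36.4 to 69.1, 139 to 319 and 43.3 to 84.7 CPM. OA against Cont called 2 of 5 Kupffer cell and 2 of 4 monocyte markers higher, and ZnPP+OA against OA called 0 of 5 and 2 of 4 lower. The summed neutrophil markers (S100a8, S100a9, Ly6g, Retnlg and Csf3r, of which 4 could be tested) ran from 3.72 to 17.0 CPM in the Cont livers, 18.0 to 61.4 with OA and 11.2 to 17.1 with ZnPP+OA. The summed cholangiocyte markers (Krt7, Krt19, Epcam, Sox9 and Spp1) ran from 44.8 to 97.5 CPM, 164 to 286 CPM and 133 to 167 CPM in the same order. Of each of these lists 1 marker was called higher in OA against Cont and 0 were called in ZnPP+OA against OA. In bulk liver tissue, a change in the number of cells of a type and a change in RNA per cell cannot be told apart, and the part of these markers in the metallothionein result was not tested.

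Of the exporters, Slc30a4 showed the largest fitted change between ZnPP+OA and OA. Slc30a4, or ZnT4, loads zinc into vesicles and is best known for the lethal milk mouse, in which milk lacks zinc. It stood at 1.60, 4.82 and 3.21 CPM in Cont, 4.23, 8.36 and 10.6 CPM in OA, and 0.709, 0.494 and 0.383 CPM in ZnPP+OA. All 3 ZnPP+OA livers lay below all 6 others, whereas Cont and OA overlapped, since Cont 2 was above OA 1. The ZnPP+OA values rest on only 30, 14 and 14 counts, against 460, 1222 and 2279 in OA. The gene 4930417H01Rik, which overlaps 617 bases of Slc30a4 on the other strand, had 16, 0 and 0 counts in the ZnPP+OA livers.

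The ZnPP+OA mean of Slc30a4, 0.529 ± 0.166 CPM, was 0.0685 of the OA mean of 7.72 ± 3.23 CPM. The log2 fold change was -3.86 ± 0.59 (95% interval -5.13 to -2.59, adjusted p = 0.00734 in edgeR), and the call was lost only without ZnPP+OA 2 (log2 fold change -3.84, adjusted p = 0.0553). Against Cont, whose mean was 3.21 ± 1.61 CPM, the log2 fold change was -2.58 ± 0.57 (95% interval -3.81 to -1.36). Its unadjusted p was 0.000545, but the adjusted p was 0.571 in edgeR, where no gene at all was called in this comparison, whereas DESeq2 gave an adjusted p of 0.00451 and edgeR without the filter on low counts 0.00706. OA against Cont gave 1.28 ± 0.53 (95% interval 0.14 to 2.41, adjusted p = 0.177).

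Slc30a1, or ZnT1, is the zinc exporter of the cell surface and itself a known target of Mtf1. It stood at 2.60, 3.66 and 5.03 CPM in Cont, 5.90, 8.16 and 10.4 CPM in OA, and 3.74, 3.07 and 5.77 CPM in ZnPP+OA. The OA livers were above all others, by a narrow margin between OA 1 and ZnPP+OA 3. The log2 fold change was 1.11 ± 0.42 in OA against Cont (95% interval 0.20 to 2.01) and -0.96 ± 0.42 in ZnPP+OA against OA (-1.86 to -0.06), and neither passed the adjusted threshold (adjusted p = 0.143 and 0.244 in edgeR). Against Cont, ZnPP+OA gave 0.15 ± 0.42 (-0.75 to 1.05, adjusted p = 0.945).

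Slc30a10 exports manganese in mammals and is known for the manganese overload that its loss produces in people. It stood at 5.56, 5.49 and 11.9 CPM in Cont, 11.7, 6.55 and 4.64 CPM in OA, and 8.39, 8.37 and 9.41 CPM in ZnPP+OA. The groups overlapped in every comparison, and Cont and OA each held 1 liver well above the other two. The fitted log2 fold changes of -0.01, 0.20 and 0.18 for OA against Cont, ZnPP+OA against OA and ZnPP+OA against Cont had 95% intervals within -0.92 to 1.10 and adjusted p from 0.870 to 0.992 in edgeR.

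Among the importers, Slc39a14 had the most counts, which are not scaled to length, and none of its differences passed the test. Slc39a14, or ZIP14, carries zinc, manganese and iron not bound to transferrin into hepatocytes and is induced by interleukin 6 in mouse liver. It stood at 30.7, 25.3 and 78.8 CPM in Cont, 79.6, 90.1 and 58.9 CPM in OA, and 62.6, 57.5 and 29.1 CPM in ZnPP+OA. Cont 3 was at the level of the OA livers, and ZnPP+OA 3 at that of the other Cont livers. The means were 44.9 ± 29.5 CPM in Cont, 76.2 ± 15.9 CPM in OA and 49.8 ± 18.0 CPM in ZnPP+OA (SD, n = 3). The log2 fold changes were 0.76 ± 0.44 in OA against Cont (95% interval -0.19 to 1.71), -0.61 ± 0.44 in ZnPP+OA against OA (-1.56 to 0.33) and 0.15 ± 0.44 in ZnPP+OA against Cont (-0.80 to 1.09), with adjusted p of 0.341, 0.521 and 0.950 in edgeR. The first of these turned on the Cont livers, at 1.40 without Cont 3 (adjusted p = 0.0530 in edgeR) and at -0.01 without Cont 1 and Cont 2 together.

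Slc39a4, or ZIP4, is the importer that takes up dietary zinc in the intestine and whose loss gives acrodermatitis enteropathica in people. In these livers it stood at 16.8, 16.3 and 21.3 CPM in Cont, 10.9, 20.5 and 21.4 CPM in OA, and 15.7, 23.5 and 19.6 CPM in ZnPP+OA. OA 1 was the lowest liver and all groups overlapped. The log2 fold changes of -0.05, 0.15 and 0.11 had the narrowest intervals of the set, from -0.74 to 0.85 over the 3 comparisons, and adjusted p from 0.865 to 0.953 in edgeR. The intestinal markers Vil1, Fabp2, Cdx1, Cdx2 and Lgals4, summed, ran from 117 to 249 CPM in Cont, 82.1 to 162 CPM in OA and 279 to 297 CPM in ZnPP+OA. Of these 5 markers, 3 could be tested and 0 were called in any comparison. Their part in the Slc39a4 level was not tested.

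Slc39a5, or ZIP5, is a zinc importer of the basolateral side of polarised cells and is best known in intestine and pancreas. It was barely detected, at 0, 15 and 45 counts in the Cont livers, 72, 189 and 165 with OA and 8, 41 and 23 with ZnPP+OA. In CPM this was 0, 0.915 and 0.642 in Cont, 0.662, 1.29 and 0.766 in OA, and 0.189, 1.45 and 0.629 in ZnPP+OA, where the count of 0 in Cont 1 allows a level of up to 0.0907 CPM (3 counts, counting error only). The groups overlapped, and the 95% intervals of the log2 fold changes spanned -3.07 to 3.66, which leaves room for a difference of several fold in either direction. Counts were low and livers within a group differed, and the part of each in this width was not tested. The gene lies wholly inside Ankrd52, which is on the other strand and was counted at 45 to 803.

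**Figure D4:**
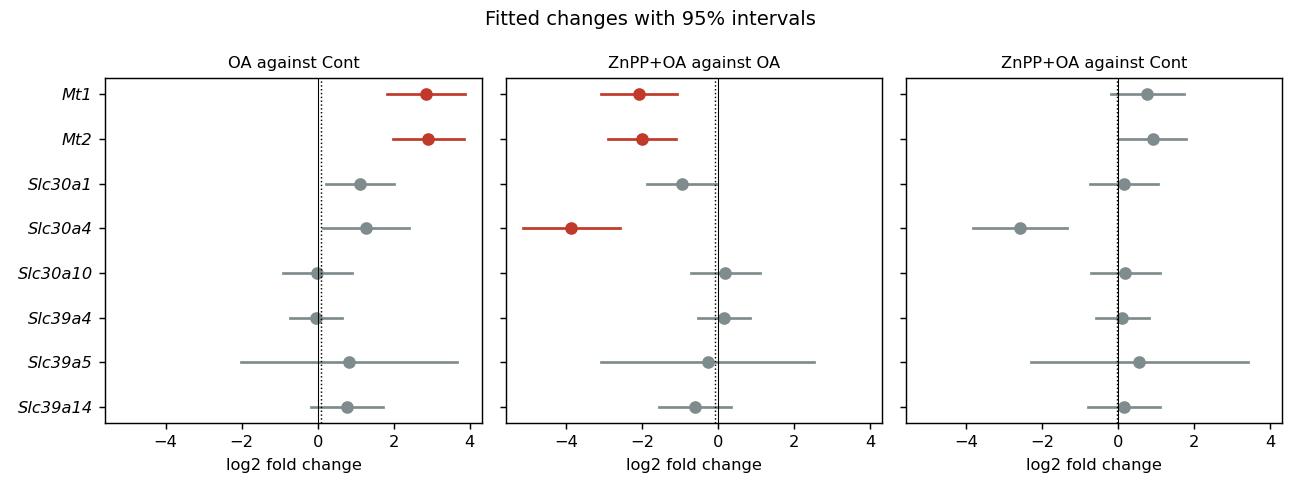
Fitted log2 fold change (x axis) of the 8 genes in the 3 comparisons, with 95% intervals from the edgeR fit. Red marks an adjusted p under 0.05 and grey any other, the solid line is 0 and the dotted line is the median of all 18895 genes tested. Mt1 and Mt2 are red at 2.85 and 2.90 in OA against Cont, and Mt1, Mt2 and Slc30a4 are red at -2.08, -2.00 and -3.86 in ZnPP+OA against OA.

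Counted over the 8 genes, 2 were called higher and 0 lower in OA against Cont, where 2.4% of all genes tested were called higher, 2.8% lower and 5.21% either way. In ZnPP+OA against OA, 0 were called higher and 3 lower, against 1.6%, 1.26% and 2.87% of all genes. In ZnPP+OA against Cont, 0 of the 8 and 0 of all 18895 genes (0%) were called in edgeR, although 2 of the 8 and 1542 of all genes had an unadjusted p under 0.05 and DESeq2 called 1 of the 8 and 129 of all. The CPM ranges did not overlap, with OA higher, for 3 of the 8 in OA against Cont and with OA lower for 0 (18.5% and 10.6% of all genes, 29.1% either way). For 4 of the 8 the ZnPP+OA range lay wholly below the OA range and for 0 above it (19.2% and 13.6% of all genes, 32.8% either way). For 1 of the 8 it lay below the Cont range and for 0 above it (4.52% and 5.74%, 10.3% either way). The median log2 fold change of the 8 genes was 0.96, -0.79 and 0.17 in the 3 comparisons, where that of all genes was 0.09, -0.07 and -0.02.

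Other scalings moved the 8 genes along with all genes. With library totals in place of TMM, the median gene stood at 1.48 in OA against Cont and at -1.85 in ZnPP+OA against OA, and the corresponding medians of log2(FPKM + 1) were 1.19 and -1.27. With library totals, Mt1 stood at 4.20 and Mt2 at 4.32 in OA against Cont, above the median gene, and Slc30a10 at 1.15 and Slc39a4 at 1.36, near it. Over all 22 alternatives, the log2 fold change in OA against Cont ran from 2.51 to 4.63 for Mt1 and from 2.53 to 4.74 for Mt2, and was called in 22 of 22 for each. In ZnPP+OA against OA, Mt1 was called in 15, Mt2 in 16 and Slc30a4 in 21 of 22. The log2 fold change of Slc30a4 ran from -5.70 with library totals alone to -1.86 on the log2(FPKM + 1) scale, which compresses low levels.

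**Figure D5:**
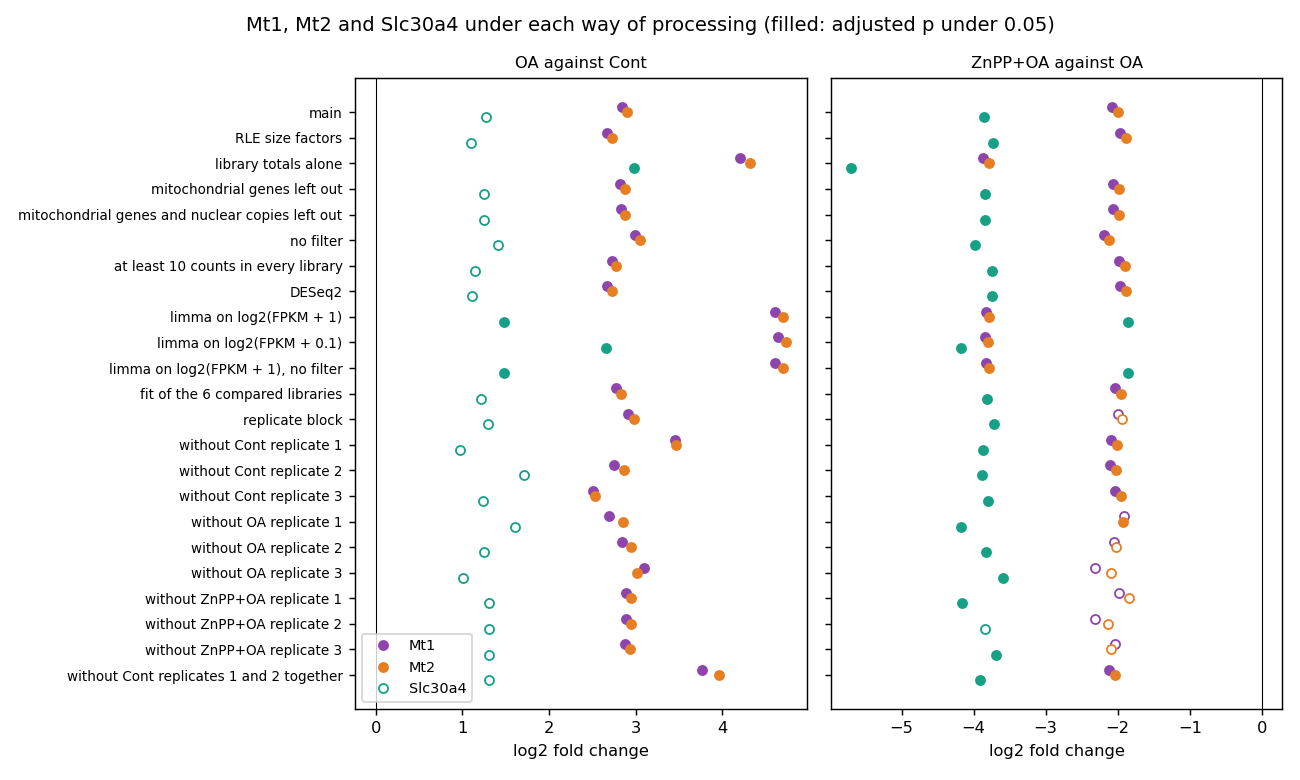
Log2 fold change (x axis) of Mt1, Mt2 and Slc30a4 in OA against Cont (left) and ZnPP+OA against OA (right) under the main fit and 22 alternatives (y axis). Filled points have an adjusted p under 0.05 and open points do not. Mt1 and Mt2 are filled throughout on the left, and on the right every open point belongs to a fit that leaves out an OA or ZnPP+OA liver or uses the replicate block.

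The other genes of zinc handling gave few calls. Of 22 further zinc genes (other Slc30 and Slc39 members, Mt3, Mt4, Mtf1 and Tmem163), 18 could be tested, and 0 were called by edgeR in OA against Cont or in ZnPP+OA against Cont, where 4 and 0 had an unadjusted p under 0.05. Of all 18895 genes, 4146 and 1542 had such a p in edgeR. DESeq2 called 1 of the 18 higher in the first, Mt3, and 0 in the second, against 2427 and 129 of all genes. ZnPP+OA against OA called 0 higher and 1, Mt3, lower in edgeR, while DESeq2 called 2 lower, Mt3 and Slc39a1. Of all genes, edgeR called 239 lower there and DESeq2 627. The medians of the 18 were 0.37, -0.33 and -0.11 in the 3 comparisons, nearer to those of all genes than the medians of the 8. Both sets were chosen with earlier results of these data known, so this difference is only a description. Mt3, a metallothionein known mainly from brain, had 0, 0 and 8 counts in the Cont livers, 288, 256 and 216 with OA and 0, 0 and 0 with ZnPP+OA. Pooled over each group this was 1.62 CPM in OA and at most 0.0280 CPM in ZnPP+OA (3 counts over the group), so Mt3 was at least 57.7-fold lower there (adjusted p = 0.0381 in edgeR, lost without any 1 of the OA or ZnPP+OA livers). Mt3 passed the filter on low counts through the OA livers alone, so a difference from OA was fixed by how it entered the test, and its counts are the result rather than its p. Its difference between OA and Cont had an adjusted p of 0.0806 in edgeR and 0.00691 in DESeq2, and was called in 7 of 21 alternatives. Mt4, the remaining gene of the cluster, had 13 counts or fewer in every liver.

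Slc39a1, a zinc importer of the cell surface, came nearest to a call in both OA comparisons among the more abundant zinc genes in the main edgeR fit. It stood at 14.5, 9.34 and 10.6 CPM in Cont, 18.4, 22.0 and 23.1 CPM in OA, and 12.3, 9.60 and 8.18 CPM in ZnPP+OA, with all OA livers above all others. The log2 fold changes were 0.88 ± 0.30 in OA against Cont and -1.08 ± 0.30 in ZnPP+OA against OA (adjusted p = 0.110 and 0.0807 in edgeR). Slc39a1 was called in 4 of 22 and 8 of 22 alternatives, the latter including DESeq2 (adjusted p = 0.0344). Slc39a7, which releases zinc from the endoplasmic reticulum and had the highest mean FPKM of these genes, gave -0.10 ± 0.36 and 0.28 ± 0.36 (adjusted p = 0.909 and 0.760). Slc39a13, Slc30a9, Slc30a5 and Slc30a6 gave log2 fold changes of 0.86, 0.35, 0.16 and 1.31 in OA against Cont, with adjusted p of 0.210 to 0.844. Mtf1, the zinc-sensing factor, was at a mean of 3.60 ± 3.24 CPM in Cont, 4.57 ± 0.83 CPM in OA and 5.64 ± 1.80 CPM in ZnPP+OA, and its adjusted p was at least 0.785 in each comparison.

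Since cytokines and glucocorticoids also switch on metallothioneins in liver, genes of those responses were read beside them. Of 23 acute phase genes, 5 were called higher (Lcn2, Apcs, Hp, Orm1 and Cp) and 2 lower (Crp and Saa4) in OA against Cont, with a median of -0.14. Lcn2, an iron-siderophore binding protein, stood at 56.9, 149 and 45.8 CPM in Cont, 752, 1563 and 1232 CPM in OA, and 238, 299 and 235 CPM in ZnPP+OA, and the groups did not overlap. Its log2 fold change was 3.82 ± 0.52 in OA against Cont (adjusted p = 0.00189 in edgeR) and -2.20 ± 0.48 in ZnPP+OA against OA (adjusted p = 0.0301, lost without OA 2, OA 3 or any 1 ZnPP+OA liver). Apcs, the serum amyloid P component, gave 1.95 ± 0.37 in OA against Cont (adjusted p = 0.0114). Between ZnPP+OA and OA, 2 acute phase genes were called higher in ZnPP+OA and 1 lower, with a median of 0.34. The pair called higher were the serum amyloid genes Saa1 and Saa2. Saa2 had a log2 fold change of 3.64 ± 0.70, opposite in sign to Mt1 and Mt2, and was called in 15 of 22 alternatives. The call was lost with library totals alone (1.81), with limma on unfiltered log2(FPKM + 1), and without any 1 OA liver, ZnPP+OA 2 or ZnPP+OA 3. These near-identical copies may divide reads between them.

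Of 11 glucocorticoid-responsive genes tested, 0 were called by edgeR in OA against Cont (median -0.21). There, 7 had an unadjusted p under 0.05 in edgeR, with Fkbp5, Dusp1, Igfbp1 and Sgk1 higher and Pck1, Sds and Zbtb16 lower. DESeq2 called 1 of the 11 higher and 2 lower. Of all 18895 genes, 4146 had an unadjusted p under 0.05 in edgeR, and DESeq2 called 824 higher and 1603 lower. With ZnPP+OA against OA, edgeR called 0 of the 11 higher and 3 lower (1.6% and 1.26% of all genes). The 3 were Igfbp1, Dusp1 and Fkbp5, and the median of the 11 was -0.25. Fkbp5, a co-chaperone of the glucocorticoid receptor, stood at 25.8, 19.2 and 20.8 CPM in Cont, 34.5, 43.5 and 49.2 CPM in OA, and 17.5, 18.2 and 11.5 CPM in ZnPP+OA. The OA livers were above all others. Its log2 fold change was 0.95 ± 0.29 in OA against Cont (adjusted p = 0.0794 in edgeR) and -1.43 ± 0.30 in ZnPP+OA against OA (adjusted p = 0.0238). Dusp1, a phosphatase of MAP kinases, gave 0.98 ± 0.32 (adjusted p = 0.0922) and -1.29 ± 0.32 (adjusted p = 0.0478). Both of the latter calls were lost when OA 2, OA 3 or any 1 ZnPP+OA liver was left out, and under the replicate block. That of Dusp1 was also lost with RLE size factors (adjusted p = 0.0767 in edgeR), with mitochondrial genes left out (0.0503) and without OA 1 (0.0919) or Cont 2 (0.0512), and held in 12 of 22 alternatives, against 16 of 22 for Fkbp5. The part of either response in the metallothionein levels was not tested.

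The genes whose pattern over the 9 livers was most like that of each member were found, out of 7598 protein-coding genes that averaged 5 CPM or more, by the Pearson r of log2 CPM. The 9 points share libraries and scaling and fall into 3 groups, so r is a description. For Mt1 these were Cyp21a1 (r = 0.969), Scn8a (0.965) and Egr1 (0.928), and for Mt2 Cyp21a1 (0.965), Scn8a (0.953) and Col4a1 (0.947). The steroid 21-hydroxylase Cyp21a1 and the sodium channel Scn8a therefore stood nearest to both. For Slc30a1 they were Cd300lf (0.977), Cd5l (0.968) and Plekha1 (0.968), of which Cd5l is also one of the Kupffer cell markers above. For Slc30a4 they were Ppp6c (0.944), Usf2 (0.943) and Ccdc71 (0.940), and for Slc30a10 Cnot3 (0.938), Spout1 (0.934) and Tmem259 (0.933). For the importers they were Akr7a5 (0.908), Cnot6 (0.895) and Myrf (0.883) with Slc39a4, Rab3il1 (0.964), Pygo2 (0.955) and AI837181 (0.955) with Slc39a5, and Slk (0.973), Ubp1 (0.972) and Etfbkmt (0.969) with Slc39a14. No transporter tracked the metallothioneins closely, the highest r of a transporter with Mt1 being 0.565 and with Mt2 0.621, both for Slc30a1.

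Per length, the order of the 8 genes was nearly fixed. Mt1 was first and Mt2 second in all 9 livers, Slc39a4 or Slc39a14 came next, and Slc39a5 was last in 7 of 9. In mean FPKM, on the authors' scale, Mt1 was at 97.6 ± 85.3 in the Cont livers, 1790 ± 336 with OA and 123 ± 9.50 with ZnPP+OA, and Mt2 at 67.3 ± 58.8, 1345 ± 95.6 and 98.2 ± 26.2. The neighbours Slc39a4 (4.80 ± 3.37, 12.3 ± 5.57 and 3.76 ± 0.60) and Slc39a14 (4.01 ± 4.21, 15.0 ± 3.43 and 2.82 ± 1.12) did not differ beyond their spread in any group, and changed places between livers. Slc30a1, Slc30a4 and Slc30a10 lay between 0.0583 and 3.36 FPKM in all group means. In the ZnPP+OA livers 2 and 3, Slc30a4 fell to the last place of the set, below Slc39a5.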

How the data were processed

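Polyadenylated RNA from 9 mouse livers was sequenced from dUTP strand-marked libraries. Per the labels' processing notes, the authors used cutadapt 1.9, HISAT2 2.2.1 and StringTie 2.1.6 on mm10. They deposited, per gene and liver, read counts that were not normalized and FPKM values (scaled to length and library size). The sources used here do not say whether counting used strand, and the table's gene positions were not used.

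Counts were fitted for all 3 groups in 1 model with edgeR 4.0.16 (R 4.3.3), using TMM scaling, filterByExpr with a minimum count of 10, the quasi-likelihood test and Benjamini-Hochberg adjustment over 18895 genes. A call is an adjusted p under 0.05. SE is the log2 fold change divided by the square root of F. Alternatives used RLE or total scaling, other filters, DESeq2 1.42.0, limma 3.58.1 on log2(FPKM + 1) or log2(FPKM + 0.1), a replicate block, and left-out livers. The fit was tested on simulated data. Levels between genes were compared in FPKM, except where counts are named.

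The 8 genes and all lists were chosen with earlier results of these data known. Besides the 8, the text names zinc genes called in any comparison, the 6 others with the highest mean FPKM, the 2 acute phase and 2 glucocorticoid-responsive genes with the smallest p in OA against Cont, and the 3 genes most like each member. Mtf1, Slc39a1's per-liver values, Mt4, Gm45774, Ankrd52, the other overlapping genes and further called list genes were picked after their values were seen. The labels name separate mice, and replicate numbers were not treated as pairs in the main fit. Depth was 32639438 to 85060187 counts per library, and the floor of 3 counts covers counting error only.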

Additional observations from a re-analysis of the deposited data

How the results depend on the processing

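Mt1 and Mt2 were called higher in OA than in Cont under all 22 alternatives. Of the member results under each alternative, 422 kept their direction and their side of the threshold. With direction kept, 22 passed it anew and 14 lost it. The other 61 changed sign, whether called or not. The number of members called in OA against Cont, 2, became 4 with library totals alone, 7 of the 7 that passed the FPKM filter with limma on log2(FPKM + 1), 5 with log2(FPKM + 0.1) and 6 with log2(FPKM + 1) without a filter. In the same order, these settings called 3038 of 18895, 7535 of 10696, 6550 of 10696 and 6444 of 32307 genes tested. In ZnPP+OA against OA, 3 members became 5, 7, 5 and 5 under the same settings, which called 6435, 8285, 6978 and 7674 of the genes tested. The number of members was 0 to 3 when 1 liver was left out (0 without ZnPP+OA 2, and 1 without any of the other ZnPP+OA livers, OA 2 or OA 3). Without ZnPP+OA 2, 57 of 20590 genes were called. In ZnPP+OA against Cont, 0 became 1, Slc30a4, without the filter and with DESeq2, which called 135 of 32309 and 129 of 18895 genes. Over all genes, calls ran from 242 to 7535 in OA against Cont (984 in the report's fit), from 45 to 8285 in ZnPP+OA against OA (542) and from 0 to 135 in ZnPP+OA against Cont (0). The split of higher against lower calls in OA against Cont, 454 to 530, became 2829 to 209 with library totals alone, 7350 to 185 with limma on log2(FPKM + 1) and 316 to 634 with RLE size factors. That in ZnPP+OA against OA, 303 to 239, became 326 to 184 with RLE size factors and 122 to 8163 with limma on log2(FPKM + 1).

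Same-numbered livers of different groups did not deviate together (r from -0.101 to 0.014 over 9 pairs, 0 above 0.1). With 3 livers a group this cannot exclude a shared batch or day, which the sample titles do not give. With the replicate number as a block, members called in ZnPP+OA against OA went from 3 to 1 (Slc30a4), all calls from 984 to 578 and from 542 to 287, and Slc30a10 in OA against Cont to 0.010.

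The sign changes were all in values that were not called in the report's fit, and their cause was not tested. Some were called with the new sign. With limma on filtered log2(FPKM + 1), Slc30a10 had an adjusted p of 0.0477 in OA against Cont and 0.0302 in ZnPP+OA against OA. Those of Slc39a4 were 0.0440 and 0.0296. With library totals alone, OA against Cont gave 1.15 for Slc30a10 and 1.36 for Slc39a4, ZnPP+OA against OA gave -1.50 and -1.72, and ZnPP+OA against Cont gave -0.35 and -0.36, -0.21 for Slc30a1 and -0.52 for Slc39a14. With limma on log2(FPKM + 1), with or without a filter, the same values were 0.79, 1.30, -0.85, -1.38, -0.062, -0.081, -0.042 and -0.057. With log2(FPKM + 0.1), Slc30a10 gave 1.47 and -1.38, Slc39a4 gave 1.55, -1.57 and -0.021 and Slc30a1 gave -0.0022 against Cont. Without a filter, OA against Cont gave 0.10 for Slc30a10 and 0.089 for Slc39a4. Without Cont 1 and Cont 2 together, ZnPP+OA against Cont gave -0.27 for Slc30a1, -0.45 for Slc30a10, -0.13 for Slc39a4 and -0.67 for Slc39a14, and OA against Cont gave -0.014 for Slc39a14.

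With 1 liver left out at a time, OA against Cont ran from -0.42 to 0.43 for Slc30a10, from -0.18 to 0.24 for Slc39a4 and from 0.50 to 1.40 for Slc39a14. ZnPP+OA against OA ran from -0.084 to 0.61 for Slc30a10, from -0.12 to 0.30 for Slc39a4 and from -1.18 to 0.17 for Slc39a5. ZnPP+OA against Cont ran from -0.14 to 0.44 for Slc30a1, from -0.0044 to 0.67 for Slc30a10, from -0.039 to 0.25 for Slc39a4, from -0.33 to 1.19 for Slc39a5 and from -0.14 to 0.84 for Slc39a14. The differences of the Mt1 to Mt2 log2 ratio ran from -0.20 to 0.070, from -0.21 to 0.11 and from -0.22 to 0.0026 in the 3 comparisons. Counts of Slc39a5 were low in every group, at 0 to 189 per liver, and those of Slc30a4 were 14 to 30 in the ZnPP+OA livers.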
